A study of Mus musculus with 2 samples.

Results

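Mitochondria oxidise pyruvate, fatty acids and amino acids and pass the electrons along a respiratory chain in their inner membrane, and the proton gradient built in this way drives ATP synthase. Almost all of their proteins are encoded in the nucleus, made in the cytosol and imported. The outer membrane is also where Bcl2-family proteins act in cell death, and Bclaf1 was named for its association with Bcl2. In lung, the alveolar type II cells that make surfactant are rich in mitochondria.

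The genes described here are the 95 mitochondrial genes, on 106 cDNA clones, that lie outside the ribosome and protein synthesis. They are the clones with a gene symbol in the 2 tables of selected clones deposited by the authors, up-regulated and down-regulated, that carry the gene ontology term for the mitochondrion and none of those for the ribosome, its structural constituents or translation. They are 106 of the 22532 clones with a ratio on both arrays, and 95 of the 2319 named genes with both ratios. All 106 clones had both ratios. Values were not used to pick them, but names exist only for clones that the authors had selected on these same arrays, so each of them had already been listed as different between the genotypes. The ontology term is broad: clathrin heavy chain (Cltc), cathepsin D (Ctsd), keratin 18 (Krt18) and desmoplakin (Dsp) are best known from other sites, and Mrpl46, a mitochondrial ribosomal protein, is included because its entry lacks the ribosome terms.

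The study set lung of Bclaf1 knockout mice, labelled with Cy3, against lung of wild-type mice, labelled with Cy5, on 2 arrays of spotted cDNA, each with 1 RNA sample per genotype. The sample titles place the tissue at embryonic day 19 and the series text at postnatal day 1. The sources used here do not give the allele, the strain, the cell types that lack Bclaf1, the sexes or any pooling of animals. Nothing in the labels says that the 2 RNA pairs came from separate animals, so the spread between arrays may be technical.

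Each value is a log2 ratio of the 2 channels. Its numerator is not stated: read as Cy5 over Cy3, a negative ratio means more signal in knockout lung, and read by the names of the authors' tables it means less. Ratios are therefore given as lying on the positive side (the authors' up-regulated table) or the negative side (their down-regulated table), and the other reading turns all signs together. With the same dye orientation on both arrays, dye and genotype cannot be told apart. The Bclaf1 clone itself lay at 0.40 on array 1 and 0.41 on array 2. Xist, the RNA of the inactive X chromosome, lay at 2.69 and 2.15, and the Y-linked Ddx3y at -1.12 and -0.61; the part of a sex difference in the values below was not tested. Across all clones the ratios had an SD of 0.295 on array 1 and 0.430 on array 2. Fewer cells of a type and less RNA per cell cannot be told apart in whole lung, and markers of lung cell types could hardly be read, since 1 of 9 alveolar type I, 1 of 13 endothelial and 0 of 13 alveolar type II markers were named. The alveolar type I marker, Emp2, lay at -0.33 and -0.52 and the endothelial marker, Eng, at -0.15 and -0.61, both on the negative side; their part in the results was not tested.

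The mitochondrial genes lay mostly on the negative side. Of the 95 genes, 33 had a positive and 62 a negative mean log2 ratio, so 65.3% were negative, with a median of -0.25. Among the named genes that are not in this group, 1087 were positive and 1137 negative (51.1% negative, median -0.061). The authors had selected all named clones as different, so values near 0 may be scarce. A median can then follow the share on each side and is no separate measure of size. In clones, 35 of 106 were positive on both arrays and 70 were negative on both, which is 33% and 66%. Over the whole array the same held for 35.7% and 33.9% of clones, and over all 2588 named clones for 47.6% and 51.9%. Most differences were small: 86 of the 95 genes had a mean log2 ratio under 0.5 in size. The same share of the other named genes was not counted, so small size is not shown to be particular to this group.

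No clone passed the test. Limma, testing each mean against 0, gave a Benjamini-Hochberg adjusted p under 0.05 to 0 of the 106 clones (background 0% of all clones), and their adjusted p ran from 0.349 to 0.893. Without adjustment, 28 clones on the positive side had a p under 0.05, against a background of 8% of all clones, as did 35 on the negative side, against 5.92%. Among all named clones, which the authors had chosen in the same way, these shares were 31.7% and 27.6%, beside 26.4% and 33.0% for the mitochondrial clones. An ordinary one-sample test also gave 0 calls, with 30 clones at an unadjusted p under 0.05. The share of all clones under that test was not counted, so these 30 clones have no background here.

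**Figure D1:**
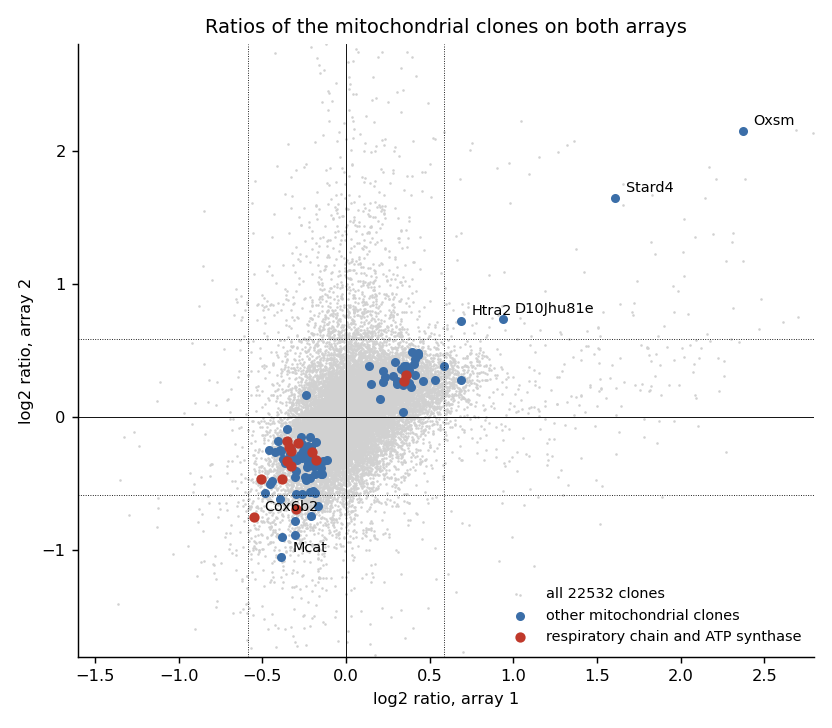
Log2 ratio of each clone on array 1 (horizontal) and array 2 (vertical); grey, all 22532 clones, of which 87 fall outside the plotted range; red, clones of the respiratory chain and ATP synthase; blue, the other mitochondrial clones. Dotted lines mark 1.5-fold. Most mitochondrial clones sit in the lower left, and 4 lie past both lines in the upper right.

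Both arrays showed more than a 1.5-fold difference, with the same sign, for 4 positive clones (background 0.506%) and 0 negative clones (background 0.311%). That is 3.77% and 0% of the mitochondrial clones, beside 2.94% and 1.08% of all named clones. Past 2-fold these counts were 2 (background 0.16%) and 0 (background 0.00888%), and past a log2 ratio of 0.32 in size they were 15 (background 3.71%) and 12 (background 2.86%). At the last of these the shares were 14.2% and 11.3%, under the 16.6% and 13.4% of all named clones. Counted on array 2 whatever array 1 showed, 4 positive and 9 negative clones were past 1.5-fold. Counted on array 1 in the same way, 6 positive and 0 negative clones were. The matching shares of all clones were not counted. Over all clones the ratios also spread more widely on array 2 (SD 0.430) than on array 1 (SD 0.295). These counts on 1 array are therefore no result about the group. Oxsm, the condensing enzyme of mitochondrial fatty acid synthesis, had log2 ratios of 2.37 and 2.15, a mean of 2.26 ± 0.16 (SD, n = 2 arrays here and below), or 4.79-fold between the channels. Stard4, a carrier of cholesterol between membranes, had 1.61 and 1.65, a mean of 1.63 ± 0.028 or 3.09-fold. D10Jhu81e, now named Gatd3a, had 0.94 and 0.74, a mean of 0.84 ± 0.14. Htra2, a serine protease of the intermembrane space that promotes cell death once released, had 0.69 and 0.72, a mean of 0.70 ± 0.026. The limma adjusted p of each of these 4 clones was 0.349. On the negative side the largest mean was that of Mcat, described below with the other fatty acid genes.

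**Figure D2:**
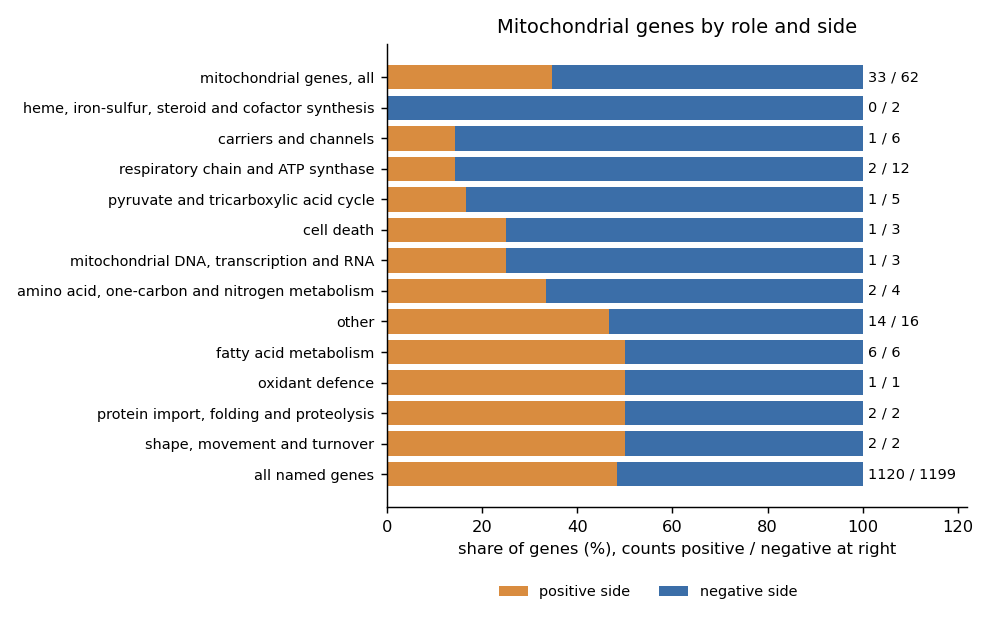
Share of genes on the positive (orange) and negative (blue) side for all 95 mitochondrial genes, for each role, and for all 2319 named genes (bottom bar), with the counts at the right. Carriers, the respiratory chain and the tricarboxylic acid cycle are mostly blue, whereas fatty acid metabolism is split into 6 and 6.

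Subunits of the respiratory chain and ATP synthase lay on the negative side in 12 of 13 genes, with a median log2 ratio of -0.29. All named subunits of complex IV (4 genes) and of ATP synthase (5 genes) were negative, and of complex I 3 were negative and 1 was positive. All named genes together were 51.7% negative. These 13 subunits had the same sign on both arrays, but 0 of them passed limma's test after adjustment, and the authors had chosen every one of them. Subunits of complex II and complex III were not among the genes analysed here.

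Complex I takes electrons from NADH. Its subunit Ndufs4, needed for the final steps of assembly, had log2 ratios of -0.30 and -0.69, a mean of -0.50 ± 0.28, with array 2 far lower than array 1. Ndufs3, a core iron-sulfur subunit, lay at -0.29 and -0.19. Ndufa13, an accessory subunit also known as Grim-19 for its part in cell death, lay at -0.20 and -0.26. Ndufb9, an accessory subunit of the membrane arm, stood apart at 0.36 and 0.32, a mean of 0.34 ± 0.030.

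Complex IV, cytochrome c oxidase, passes electrons to oxygen. Cox6b2, the isoform best known from testis, had log2 ratios of -0.55 and -0.75, a mean of -0.65 ± 0.14 or 1.57-fold between the channels. Cox6b1, the widespread isoform of the same subunit, had -0.38 and -0.46, a mean of -0.42 ± 0.058. Both isoforms were thus negative on both arrays, and Cox6b2 was the lower of the pair on each. Cox6a1 lay at -0.35 and -0.33, a mean of -0.34 ± 0.015, and Cox4i1 at -0.35 and -0.18.

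ATP synthase makes ATP from the proton gradient. Atp5j2, a subunit of the membrane part, had -0.51 and -0.47, a mean of -0.49 ± 0.028. Atp5e, of the central stalk, had -0.33 and -0.37, a mean of -0.35 ± 0.026, and Atp5l, of the membrane part, had -0.33 and -0.26, a mean of -0.29 ± 0.051. Atp5a1, of the catalytic head, had -0.34 and -0.23, and 2010107E04Rik, now named Atp5mpl, had -0.18 and -0.33. All 10 ratios of these 5 genes were negative, from -0.18 to -0.51. The authors had chosen these clones on the same arrays, so the lack of ratios near 0 is no result about ATP synthase. Coq10b, which binds the electron carrier coenzyme Q, is no subunit of a complex and was positive, at 0.35 and 0.27.

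**Figure D3:**
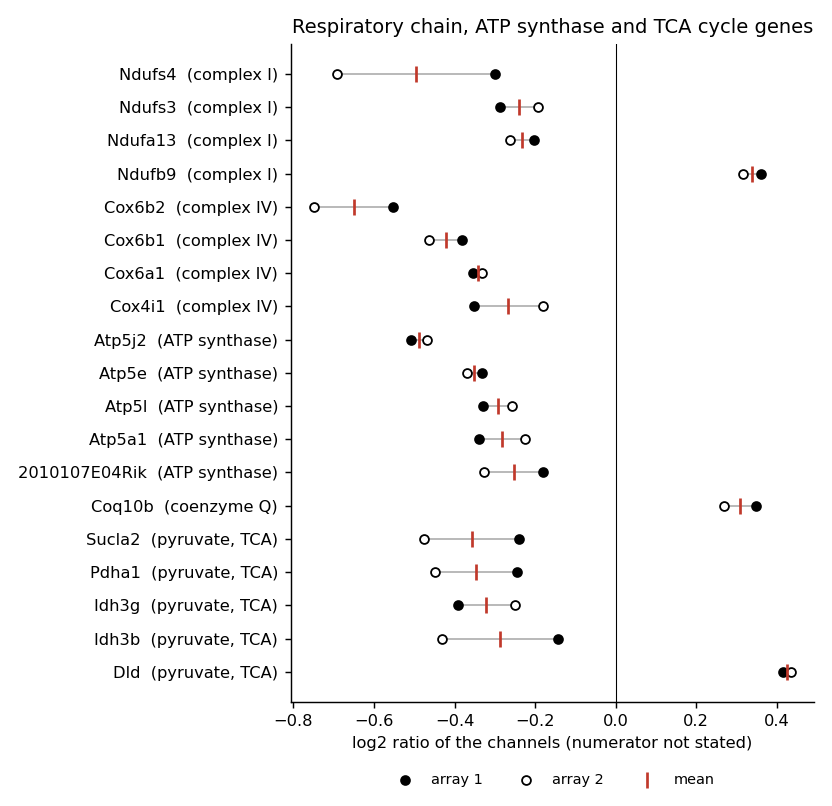
Log2 ratio on array 1 (filled), array 2 (open) and their mean (red bar) for genes of the respiratory chain, ATP synthase, coenzyme Q and the pyruvate and tricarboxylic acid cycle group. Of the genes drawn, Ndufb9, Coq10b and Dld lie right of 0.

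Promoters were examined for letters known from factors that act on many nuclear genes of mitochondria. The letters searched on both strands were the 10-letter palindrome of Nrf1 (its own reverse complement, shown in capitals in the Cox6a1 and Oxsm windows below), CCGGAAG, a core bound by ETS factors such as Gabpa, and AAGGTCA, a core bound by oestrogen-related receptors. Windows of 250 bases before to 50 bases after the start were available for 69 genes of the group (RefSeq, GRCm38.p6), leaving out clones with a conflicting name. The Nrf1 palindrome occurred in 6 of these 69 genes (8.70%), in 2.96% of 1552 other named genes and in 1.07% of 27025 genes in all. CCGGAAG occurred in 18 (26.1%), against 19.5% and 9.93%, and AAGGTCA in 5 (7.25%), against 2.84% and 5.38%. Genes with the palindrome lay on both sides: Oxsm, Etfdh and Opa1 were positive, and Cox6a1, Alas1 and Zcd1 negative. Genes with CCGGAAG also lay on both sides: Glud1, Pgs1, Polg and Tomm70a had positive means, and the others negative means. All 5 genes with AAGGTCA (Atp5e, Atp5l, Bcl2l1, Peo1 and Slc27a2) were negative, in a group that was 65.3% negative. Whether letters and side go together was not tested. A match is a description of the letters and not a site shown to be bound.

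The windows below show Cox6a1 (chr5:115348909-115349208, minus strand) and Oxsm (chr14:16243282-16243581, minus strand), which share the Nrf1 palindrome and lie on opposite sides, and Atp5e (chr2:174464052-174464351, minus strand) and Atp5l (chr9:44920693-44920992, minus strand), which share both other cores and lie on the same side. They run 5′ to 3′ along the gene, and capitals mark the letters searched, on either strand.
Cox6a1: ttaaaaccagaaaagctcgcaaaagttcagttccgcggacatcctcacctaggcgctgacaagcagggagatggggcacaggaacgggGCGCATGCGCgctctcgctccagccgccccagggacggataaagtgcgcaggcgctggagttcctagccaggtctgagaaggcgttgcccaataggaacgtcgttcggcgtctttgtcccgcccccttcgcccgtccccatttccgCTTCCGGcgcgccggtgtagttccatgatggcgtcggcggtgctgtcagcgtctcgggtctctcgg
Oxsm: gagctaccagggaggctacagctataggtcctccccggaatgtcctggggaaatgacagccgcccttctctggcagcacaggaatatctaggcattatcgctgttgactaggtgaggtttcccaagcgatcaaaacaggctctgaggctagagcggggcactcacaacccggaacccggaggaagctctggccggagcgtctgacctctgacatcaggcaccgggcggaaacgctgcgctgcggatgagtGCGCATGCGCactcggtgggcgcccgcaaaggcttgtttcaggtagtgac
Atp5e: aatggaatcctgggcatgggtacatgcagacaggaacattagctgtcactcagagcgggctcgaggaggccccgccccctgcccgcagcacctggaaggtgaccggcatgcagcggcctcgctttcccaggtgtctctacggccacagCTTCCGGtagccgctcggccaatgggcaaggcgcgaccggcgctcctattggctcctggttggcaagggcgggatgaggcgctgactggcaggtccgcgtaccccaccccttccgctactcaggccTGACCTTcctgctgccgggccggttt
Atp5l: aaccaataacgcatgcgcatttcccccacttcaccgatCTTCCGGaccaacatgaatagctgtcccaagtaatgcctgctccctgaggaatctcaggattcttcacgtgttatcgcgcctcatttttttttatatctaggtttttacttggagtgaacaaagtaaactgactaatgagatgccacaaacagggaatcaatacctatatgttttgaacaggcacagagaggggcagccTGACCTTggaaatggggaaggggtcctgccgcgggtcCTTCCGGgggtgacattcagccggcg

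Genes of pyruvate oxidation and the tricarboxylic acid cycle lay on the negative side in 5 of 6, with a median of -0.30. Pdha1, the first component of pyruvate dehydrogenase, had log2 ratios of -0.24 and -0.45. Dld, the dehydrogenase that serves as the last component of the same complex and of its relatives, had 0.42 and 0.43, a mean of 0.42 ± 0.014. The complex thus had named components on both sides. Idh3g and Idh3b, the regulatory subunits of isocitrate dehydrogenase, lay at -0.39 and -0.25 and at -0.14 and -0.43. Sucla2, of succinyl-CoA ligase, lay at -0.24 and -0.48. Clone position moved with this group. A block is a run of consecutive clone numbers, all blocks being of equal size. After subtracting block medians, the median of this group was -0.15. That of the 13 respiratory subunits was then -0.32, but the complex I subunits moved from a median of -0.24 to -0.13. Block medians ran from -0.33 to 0.34. Over all mitochondrial clones, blocks of positive clones had a median of 0.033 on array 1 and 0.13 on array 2. Blocks of negative clones had -0.017 and -0.066.

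Fatty acid genes were evenly split, 6 positive and 6 negative. Mitochondrial fatty acid synthesis, which builds the lipoate precursor, had its named enzymes at opposite ends: Oxsm was the highest of all 95 genes, and Mcat, which supplies it with malonyl groups, was the lowest. Mcat had -0.39 and -1.05, a mean of -0.72 ± 0.47, so its size rested on array 2. The authors' deposited table gave fold changes of 4.9 for Oxsm and 0.61 for Mcat. Cpt1a loads fatty acids onto carnitine, at the step that admits them to the mitochondrion. Its 1 clone was negative, at -0.40 and -0.62, a mean of -0.51 ± 0.16. Mlycd, which removes the malonyl-CoA that blocks Cpt1a, had -0.48 and -0.57, a mean of -0.53 ± 0.061.

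Of the beta-oxidation enzymes themselves, Hadhb of the trifunctional protein lay at 0.34 and 0.24 and the thiolase Acaa2 at -0.26 and -0.20. Dci, now named Eci1, an isomerase for unsaturated chains, was negative on both of its clones, at -0.27 and -0.31 and at -0.43 and -0.26. The electron acceptors of this pathway were positive, with Etfb at 0.33 and 0.36 and Etfdh at 0.46 and 0.27. Acat1, which handles ketone bodies, lay at 0.28 and 0.31, and Acot2, a thioesterase, at 0.35 and 0.34. Pcca, of propionyl-CoA carboxylase, lay at -0.27 and -0.29. Each of these genes had the same sign on both arrays.

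**Figure D4:**
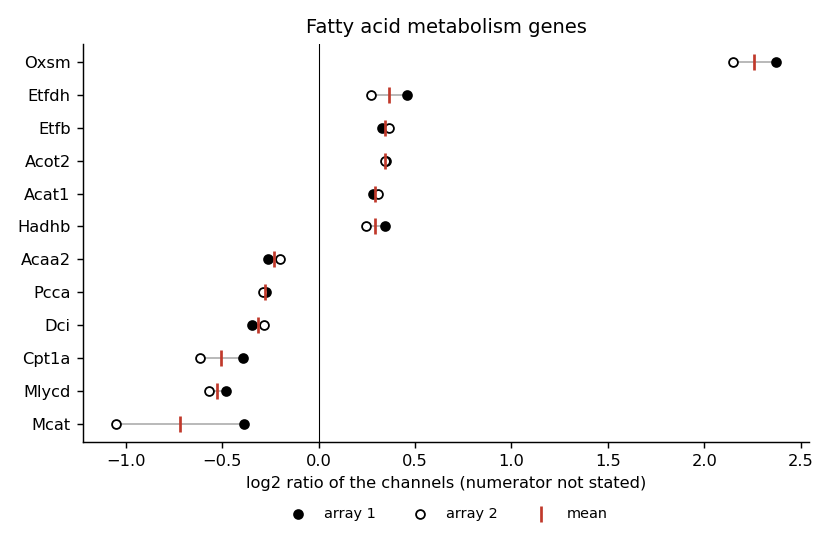
Log2 ratio on array 1 (filled), array 2 (open) and their mean (red bar) for the 12 fatty acid metabolism genes, ordered by mean; Dci is the mean of its 2 clones. Oxsm lies far right of the rest, and Mcat has the widest gap between arrays.

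Amino acid and one-carbon genes were 2 positive and 4 negative. Glud1, which links glutamate to the tricarboxylic acid cycle, had log2 ratios of 0.43 and 0.47, a mean of 0.45 ± 0.025, and Mccc2, of leucine breakdown, had 0.30 and 0.25. Dbt, of branched-chain amino acid breakdown, had -0.26 on both arrays. Mthfd2, a folate enzyme active in dividing cells, lay at -0.46 and -0.25. Maob, which degrades amines, lay at -0.20 and -0.36, and Suox, which oxidises sulfite, at -0.22 and -0.15.

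Carriers and channels of the membranes were negative in 6 of 7 genes, with a median of -0.28. Sfxn1, a serine transporter, had -0.45 and -0.50, a mean of -0.48 ± 0.035, the lowest mean of this group. Its relative Sfxn2 lay at -0.22 and -0.27. Vdac2, a pore of the outer membrane, lay at -0.23 and -0.35, and Zcd1, now named Cisd1, an iron-sulfur protein of that membrane, at -0.33 and -0.24. Of the Slc25 carriers, Slc25a24, which exchanges ATP for phosphate, had -0.20 and -0.55, and Slc25a32, a folate and FAD carrier, -0.18 and -0.19. Slc25a36, a pyrimidine nucleotide carrier, was the positive member at 0.14 and 0.38.

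Of the 4 genes listed under protein import, folding and proteolysis, 2 were positive and 2 negative. Tomm70a, a receptor of the outer membrane for incoming precursors, lay at 0.43 and 0.48, on the same side as Htra2. Mipep, which trims imported precursors, lay at -0.26 and -0.58, and Chchd3, of the complex that shapes the cristae, at -0.34 and -0.28. Another 2 genes with related roles are not on that list and are counted with the remaining genes, and both were negative. Metapl1, now named Metap1d, an aminopeptidase, lay at -0.38 and -0.32, and Gfer, the sulfhydryl oxidase of intermembrane space import, at -0.19 and -0.43.

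Among genes of mitochondrial DNA, Polg, the catalytic subunit of its polymerase, was positive with 0.69 and 0.28, a mean of 0.48 ± 0.29. Peo1, now named Twnk, the helicase that works with it at the replication fork, was negative with -0.21 and -0.23. Ung, a repair glycosylase, lay at -0.21 and -0.31, and Mterfd3, now named Mterf2, of the transcription termination family, at -0.15 and -0.43. Of cofactor synthesis, Alas1, the enzyme of the first step of heme synthesis, had -0.18 and -0.36, and Fdxr, which feeds electrons to steroid and iron-sulfur synthesis, -0.23 and -0.37. Of oxidant defence, Gpx4, which reduces lipid peroxides, had 0.37 and 0.25 and Msrb3, a methionine sulfoxide reductase, -0.21 and -0.74.

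Of the 4 genes counted under cell death, 3 lay on the negative side. Htra2, counted under protein import, was positive at 0.69 and 0.72. Of 8 further named cell death genes that lack the mitochondrion term, 7 were positive. Cell death genes as a whole thus lay on both sides. Bcl2l1, which encodes the survival protein Bcl-xL, had log2 ratios of -0.30 and -0.78, a mean of -0.54 ± 0.34. Bcl2l10, another relative of Bcl2, had -0.22 and -0.57, and Hk1, a hexokinase that binds the outer membrane, -0.17 and -0.67. All 3 were more than 1.5 times as large in log2 size on array 2 as on array 1. Aifm1, a flavoprotein that takes part in cell death and in respiratory chain assembly, lay on the other side at 0.39 and 0.22.

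Of the genes that shape and remove mitochondria, Opa1, which fuses inner membranes, lay at 0.22 and 0.26 and Bnip3l, a receptor for their removal by autophagy, at -0.14 and -0.33. Mfn1, which fuses outer membranes, had 1 clone at 0.23 and 0.30 and another at -0.19 and -0.57. Tbc1d15, a Rab regulator of mitochondrial shape, had 1 clone at 0.35 and 0.39 and another at -0.21 and -0.32. These genes therefore have no settled side, since the authors list a clone of each in both tables.

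Agreement between named clones could be read for 8 genes with 2 or 3 clones each, 19 clones in all. The other 87 genes rest on 1 clone. Only clones that the authors had selected carry names, so clones of these genes without a difference cannot be seen. The counts below therefore cannot show that clones of a gene agree in general. In 5 of the 8 genes all named clones lay on 1 side. Acbd3, a Golgi and mitochondrial adaptor, had -0.30 and -0.40, -0.38 and -0.90, and -0.35 and -0.32 on its 3 clones. Ctsd, the lysosomal protease cathepsin D, had -0.19 and -0.32, -0.21 and -0.46, and -0.36 and -0.35. Elovl6, which elongates fatty acids, had -0.39 and -0.26, and -0.30 and -0.45. The others on 1 side were Dci and Cdc42bpa. In the remaining 3, Mfn1, Tbc1d15 and Cltc, clones lay on opposite sides; Cltc had -0.30 and -0.57, -0.31 and -0.89, and 0.40 and 0.40. The gap between clones of these 3 genes was larger than the gap between arrays.

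**Figure D5:**
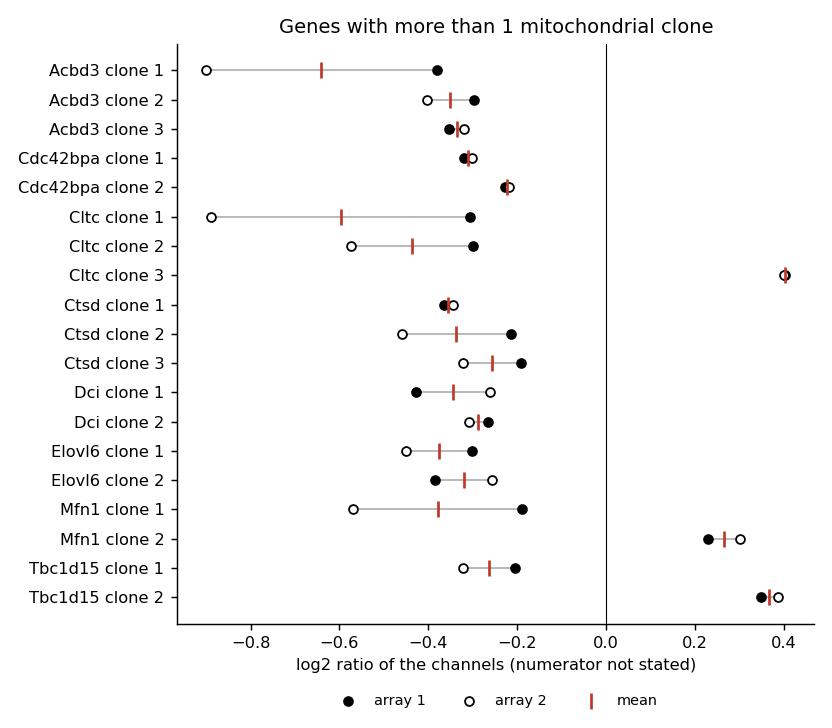
Log2 ratio on array 1 (filled), array 2 (open) and their mean (red bar) for the 19 clones of the 8 genes with more than 1 clone. Clones of Cltc, Mfn1 and Tbc1d15 fall on both sides of 0, and those of the other 5 genes on the negative side alone.

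The remaining genes have other or broader roles, and 14 were positive and 16 negative. Lipid genes on the negative side were Sgpp1, a sphingosine phosphate phosphatase (-0.45 and -0.48), Slc27a2, a fatty acid importer (-0.27 and -0.15), and Tmlhe, which starts carnitine synthesis (-0.15 and -0.39). Pgs1, of cardiolipin synthesis, had 0.34 and 0.03, so its size rested on array 1. Cyb5b, a cytochrome of the outer membrane, had 0.53 and 0.28, and Cbr2, a carbonyl reductase abundant in mouse lung, 0.36 and 0.38. Mrpl46 lay at 0.59 and 0.38. Kinase subunits Prkaca and Prkca were negative, at -0.41 and -0.18 and at -0.23 and -0.27. Krt18 lay at 0.41 and 0.31, Dsp at 0.15 and 0.25, and the calcium store protein Casq1 at 0.39 and 0.49. Ap2m1, a clathrin adaptor subunit, lay at 0.20 and 0.13, with a mean of -0.014 once block medians were subtracted. Of the rest, Ywhaz, Dpysl2 and Gprc5c were positive, with means of 0.37, 0.35 and 0.29, and Cox4nb and Sncb negative, with means of -0.31 and -0.24. The names of 3 clones conflict: 2 named Cdc42bpa carry the gene ID of Coq8a (-0.23 and -0.22, and -0.32 and -0.30), and EG433273 carries that of Gapdh (0.22 and 0.34).

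Arrays differed in scale. Of the 71 negative clones, 47 were larger in size on array 2, and of the 35 positive clones 16 were. Among all clones 59.6% were larger on array 2. The median SD between arrays was 0.092 for the negative and 0.050 for the positive clones. The authors had selected the clones on these arrays, which can favour clones whose arrays agree, so these SDs may be too small.

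Other ontology terms of the genes, which were not used to choose them, were read beside named genes outside the group. Of genes with the term for ion transport, 7 of 7 mitochondrial and 15 of 25 other named genes were negative. For oxidoreductase activity these counts were 16 of 24 and 21 of 50, and for electron transport 11 of 16 and 10 of 28. For the inner membrane they were 19 of 29 and 4 of 8, and for the nucleus 7 of 10 and 287 of 564. The outer membrane term had 2 positive and 2 negative genes. All 3 genes with the intermembrane space term and the 1 with the matrix term were positive. No other named gene carried the outer membrane, intermembrane space or matrix term. Genes with these terms were also counted under their roles above. The mitochondrial genes set aside for their ribosome or translation terms lay mostly on the other side. Of these 12 genes with both ratios, 8 were positive and 4 negative, with a median of 0.26. Mrps18a, of the small mitochondrial ribosomal subunit, had 0.93 and 0.83, and Mrpl19, of the large one, a mean of -0.73 ± 0.26 over its 2 clones. None of these differences was tested, since all names come from clones the authors had selected.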

How the data were processed

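RNA from Bclaf1 knockout and wild-type lung was hybridised together on 2 spotted cDNA arrays, per the labels' protocols. The authors deposited 1 log2 ratio for each clone on each array; the sources used here do not give their software, normalization or background correction. The base was inferred, because the mean log2 ratio had a slope of 0.974 on log2 of the authors' deposited fold change. The authors' tables hold, per the file headers, a fold change on a linear scale and a p-value for every clone; the sources used here do not name the test. Those tables were used for names and annotation.

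Of 22656 clones, 22532 had both ratios and were used as deposited. The mean of each clone was compared with 0 by limma 3.58.1 under R 4.3.3 (intercept and eBayes, two-sided test), and p-values were adjusted by Benjamini-Hochberg over all clones and a threshold of 0.05; 1 residual degree of freedom remains per clone. The script was tested on simulated data. Clones of a gene were averaged by the file's symbol; current names came from RefSeq (GRCm38.p6) by gene ID for 103 of the 106 clones. No signal intensities were used, so no filter on dim spots was run; the number of arrays limits the precision.

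The rule for named genes allowed every gene of the group under its role, with both ratios; fuller statistics went to genes past 1.5-fold on both arrays, the leading 3 of each role, the respiratory chain and genes with clones on opposite sides. A few genes covered by this rule are left unreported. Genes, lists, letters and tests were chosen with earlier results of these data known.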

Additional observations from a re-analysis of the deposited data

How the results depend on the processing

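The count of clones with an adjusted p under 0.05 was 0 under each alternative: centring, equal median absolute deviations, quantile normalization, block medians subtracted, robust eBayes, an ordinary one-sample test, clones with a value on at least 1 array, and clones of a gene averaged. The lowest adjusted p ran from 0.319 after quantile normalization to 0.513 in the ordinary test. The clones at an unadjusted p under 0.05 ran from 30 in the ordinary test to 68 after quantile normalization. The matching shares of all clones under these alternatives were not counted, so the range describes the group's own count only. The count of positive genes was 32 to 34 under the alternatives that count genes, and 34 on either array alone; counted as clones, 35 of 106 were positive. Without genes that have clones on both sides, an alternative chosen after seeing the data, 32 were positive and 60 negative. The count past 1.5-fold on both arrays, 4 as reported, was 2 at a 2-fold and 27 at a threshold of 0.32 on the log2 scale. With 1 array left out it ran from 6 to 13. Array 1 then gave 6 positive and 0 negative clones, and array 2, with the wider ratios, 4 positive and 9 negative clones. The matching shares of all clones on 1 array were not counted. Equal median absolute deviations brought 1 negative clone past the threshold. With block medians subtracted 46 of 95 genes moved by 1 SD or more, Ap2m1 was among the 2 genes that changed sign, and the median of the group was -0.18. The mean of Mfn1 changed sign on array 1 alone. No paired analysis was possible because each array is itself the pair of genotypes and gives a single ratio. With 1 clone for 87 of 95 genes, 2 arrays and no dye swap, gene, clone, dye and genotype effects cannot be told apart.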

Other observations

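Genes of the same pathways that lack the mitochondrion term in the tables were read by fixed lists. Slc25a40, a carrier of the inner membrane, had log2 ratios of 2.39 and 1.78 and was thus in the range of Oxsm, whereas Slc25a12, the aspartate and glutamate carrier, had -0.44 and -0.73. All 4 further fatty acid genes were negative, among them the thioesterase Acot1 at -0.38 and -1.12, as were both further import genes, Dnajc15 and Samm50. Of 8 further genes on the cell death list 7 were positive, among them Bnip1 at 0.48 and 0.34 and Pdcd5 at 0.25 and 0.30. Some entered by name pattern alone, namely Trp53bp1 (0.45 and 0.45), Bag2 and Bag5, and their main roles may lie elsewhere. Of the 4 listed genes with the term, among them Hk1, 3 were negative. Of amino acid genes 2 were positive and 4 negative, with Pycr1, of proline synthesis, negative. Fastkd3, of mitochondrial RNA handling, had 0.71 and 0.55. No gene of these lists passed limma's test after adjustment.

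Of the nuclear regulators of mitochondrial genes, 5 were named, 2 positive and 3 negative. Esrrg, an oestrogen-related receptor that activates genes of oxidative metabolism, had -0.47 and -0.56. Yy1 lay at -0.34 and -0.25, and Hif1a, the oxygen-regulated factor, at -0.28 and -0.27. Nfe2l2, which directs oxidant defence, lay at 0.24 and 0.30. Foxo3a, a forkhead factor of stress responses counted as positive, had opposite signs, at 0.93 and -0.16 (mean of its 2 clones). Markers of tissues rich in mitochondria were few: 4 of 23 heart and skeletal muscle markers were named, with Tnnt2 at 0.47 and 1.26 and Mb at 0.17 and 0.90, but Pln at -0.44 and -0.88 and Myh6 at -0.19 and -0.56. Of 10 brown adipocyte markers 1 was named (Plin, 0.71 and 0.19), and of 13 liver, 14 red cell, 10 airway and 16 leukocyte markers 0 were. Their part in the ratios of the mitochondrial genes was not tested.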
